A study of Mus musculus with 8 samples.

Results

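Cholesterol and fatty acid synthesis genes were followed across 8 mouse arrays. The set held 34 listed genes: enzymes of the mevalonate and sterol pathway, the SREBP factors and the proteins that control them, carriers of sterol, and enzymes that make fatty acids. Members were all probe sets whose platform annotation named 1 of these genes alone. There were 76 such probe sets of 45101 on the array, and they represented 33 of 18194 named genes. Acat2, a thiolase at the head of the pathway, was not analysed here, since none of these probe sets was named for it alone. All 33 genes, on 65 of their 76 probe sets, had a mean above the filter on low signals. The list was written for this work, and the rule used no measured value.

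Total RNA labelled as brain, cerebral cortex was hybridised to 1 Affymetrix array per sample in 4 groups of 2 samples. The groups were a vehicle control, fibroblast growth factor 2 (FGF2), FGF2 with U0126, which the labels call a MEK inhibitor, and FGF2 with SB202190, which they call a p38 inhibitor. FGF2 is a mitogen for astroglia, MEK is the kinase that activates ERK, and p38 is a stress-activated kinase. By its title, the study concerns genes of the astroglial FGF2 response. No sample analysed here had an inhibitor without FGF2, and both inhibitor groups were compared with the same pair of FGF2 arrays. The sources used here give no strain, age, dose or time, and do not say whether the RNA came from tissue or from cultured cells. The treatment type of SB202190 replicate 2 is labelled acclimatization, while that of the other 7 samples is labelled wait. No label states that the replicates came from different animals or cultures, and the p-values then cover only sample-to-sample spread, part or all of which may be technical.

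Animal cells build cholesterol from acetyl-CoA through mevalonate, farnesyl diphosphate, squalene and lanosterol, and build saturated and monounsaturated fatty acids from the same acetyl-CoA. SREBP transcription factors switch on both pathways: when membrane sterol is low, Scap carries SREBP from the endoplasmic reticulum to the Golgi for cleavage, and Insig proteins hold it back when sterol is high. The adult brain makes its own cholesterol behind the blood-brain barrier, and astrocytes supply sterol to neurons.

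The promoters of members that rose when SB202190 was added to FGF2 are shown because that comparison called members in 1 direction only. RefSeq windows (build GRCm38.p6) from 250 bases before to 50 bases after a start site were held for 27 of the 34 genes, in 35 windows, and for 5 of these 6 members. The 250 bases before the start are printed 5′ to 3′ on the gene's strand for Hmgcs1 (chr13:119690101-119690350, plus strand), Cyp51 (chr5:4104698-4104947, minus strand), Msmo1 (chr8:64733579-64733828, minus strand), Insig1 (chr5:28071162-28071411, plus strand) and Acss2 (chr2:155517793-155518042, plus strand). Capitals mark the NF-Y box CCAAT, the GC box GGGCGG and the sterol-element form TCACNCCAC, each on either strand.
Hmgcs1: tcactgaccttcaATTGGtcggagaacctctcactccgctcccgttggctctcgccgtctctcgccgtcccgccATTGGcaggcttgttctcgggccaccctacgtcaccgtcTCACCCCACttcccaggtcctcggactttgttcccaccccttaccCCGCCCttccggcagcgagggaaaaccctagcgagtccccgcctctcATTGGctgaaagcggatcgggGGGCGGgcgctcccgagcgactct
Cyp51: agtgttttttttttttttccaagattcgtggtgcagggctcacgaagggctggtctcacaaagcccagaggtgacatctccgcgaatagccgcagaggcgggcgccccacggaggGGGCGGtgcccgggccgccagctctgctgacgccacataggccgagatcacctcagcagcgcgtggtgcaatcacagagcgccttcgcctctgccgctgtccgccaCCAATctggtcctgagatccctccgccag
Msmo1: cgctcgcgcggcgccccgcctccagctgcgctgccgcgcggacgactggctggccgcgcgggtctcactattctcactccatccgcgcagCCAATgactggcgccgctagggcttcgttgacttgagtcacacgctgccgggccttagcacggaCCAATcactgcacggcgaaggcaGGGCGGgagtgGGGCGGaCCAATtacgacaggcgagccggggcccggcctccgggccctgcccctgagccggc
Insig1: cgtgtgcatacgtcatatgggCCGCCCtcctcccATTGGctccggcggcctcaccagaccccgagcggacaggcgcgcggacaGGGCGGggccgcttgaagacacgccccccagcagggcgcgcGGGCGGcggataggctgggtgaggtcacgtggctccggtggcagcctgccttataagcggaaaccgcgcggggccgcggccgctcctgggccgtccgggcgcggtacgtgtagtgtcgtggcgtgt
Acss2: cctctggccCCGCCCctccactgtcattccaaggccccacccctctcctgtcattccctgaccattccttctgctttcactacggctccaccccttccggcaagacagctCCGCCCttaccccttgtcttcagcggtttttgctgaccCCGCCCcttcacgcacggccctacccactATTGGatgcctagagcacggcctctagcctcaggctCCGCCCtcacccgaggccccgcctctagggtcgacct

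In the 250 bases printed, Hmgcs1 held 3 CCAAT boxes, Msmo1 3, and Cyp51, Insig1 and Acss2 1 each. GGGCGG matched 4 times for Acss2, 3 times for Insig1, 2 times each for Hmgcs1 and Msmo1, and 1 time for Cyp51. Of these 5 sequences, only that of Hmgcs1 held TCACNCCAC, on the gene's strand from -137 to -129 counted from the start. Over the 35 member windows of 300 bases, CCAAT on either strand lay in 68.6%, against 37.4% of all 32851 windows and 37.6% of the 13596 windows of genes tested here. GGGCGG lay in 77.1%, against 35.7% of all windows and 60.5% of those of tested genes. TCACNCCAC lay in 2.86% of member windows and 1.24% of all windows, and its shorter core TCACNCC, which overlaps it, in 17.1% and 15.6%. These are letter matches in a short window, not binding sites, and some genes have several windows.

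Each array had been scaled by the authors to a common trimmed mean, and median signals ran from 22.3 to 27.8. Replicates correlated at 0.980 to 0.984 across the genes tested and arrays of different groups at 0.947 to 0.981. FGF2 replicate 2 stood apart on a spiked cre control at 11087, against 8328 to 8988 on the other 7 arrays. The ratio of 3′ to 5′ Actb signal was 1.28 and 1.26 on the U0126 arrays and 1.31 to 1.41 on the rest. Astrocyte markers were above the filter for 10 of 10 genes, of which 10 fell with FGF2 and 7 rose when U0126 was added. Their summed signal was 24965 to 25213 with vehicle, 13424 to 13542 with FGF2, 16569 to 16864 with U0126 added and 13106 to 13290 with SB202190 added. Oligodendrocyte precursor markers (5 of 6 above the filter) summed to 2074 to 2081, 4232 to 4370, 3308 to 3411 and 3689 to 3801 in the same order. Only 2 of those 5 genes were called higher with FGF2 and 0 lower, 3 had a positive and 2 a negative change, and the median was 0.16. With FGF2 and U0126 against vehicle 2 were higher and 1 lower, with a median of -0.40, so the sum does not describe each marker. Ependymal markers fell with FGF2 for 6 of 6 genes and fibroblast and pericyte markers for 6 of 8. Above the filter were 3 of 9 measured myelin genes, 4 of 8 neuronal, 3 of 8 microglial and 3 of 6 endothelial markers. The neuronal markers Rbfox3, Snap25, Slc17a7 and Nefl and the myelin genes Mag, Mog and Mobp lay below the filter. Of those above it, FGF2 raised 2 and lowered 0 of 4 neuronal markers and raised 0 and lowered 2 of 3 myelin genes. Neuronal markers summed to 1683 to 1723 with vehicle, 1897 to 2007 with FGF2, 1454 to 1513 with U0126 added and 2222 to 2230 with SB202190 added. Myelin genes summed to 2514 to 2636, 2095 to 2227, 1613 to 1613 and 2201 to 2387 in that order. These marker levels moved with the treatments, and their part in the member differences was not tested. In bulk RNA, fewer cells of a type and less RNA per cell cannot be told apart.

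A log2 change is a difference of quantile-normalised log2(signal + 1.77) between group means, given ± its SE from limma with all 8 arrays in 1 fit. A member was called at a Benjamini-Hochberg adjusted p under 0.05 over 13174 genes. Signals are the deposited linear values, and their means carry the SD over 2 arrays.

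With FGF2, 45.5% of the members were called, against 37.9% of all genes, and both went in both directions. Insig1, Elovl6, Lbr, Sc5d, Idi1, Fdps, Acly and Cyp51 rose, and Hmgcs1, Scd2, Ebp, Insig2, Fdft1, Sqle and Scap fell. These were 8 members higher and 7 lower of 33, beside 18.9% of all genes called higher and 19% called lower. The member median was -0.0049, and the median of all genes was -0.0039. Elovl6 was the only member called at 2-fold or more, as were 7.61% of all genes, and the median absolute change was 0.21 for members and 0.31 for all genes. With arrays centred on the median probe set, all genes shifted up by a median of 0.16. The member counts then became 14 higher and 0 lower, beside 4018 higher and 1479 lower of 13178 genes. Every direction below against vehicle is therefore relative to the quantile scale. Without FGF2 replicate 2, 7 members were called higher and 5 lower.

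U0126 added to FGF2 gave 9 members higher and 3 lower than FGF2 alone. Hmgcs1, Msmo1, Dhcr7, Srebf1, Insig1, Npc1, Acss2, Acaca and Scd2 rose, and Idi1, Sc5d and Lbr fell. Of all genes, 11.6% were called higher and 10.5% lower. The member median was 0.17, and 23 of 33 members had a positive change. That of all genes was 0.030. The count fell to 4 without FGF2 replicate 1 and to 6 without U0126 replicate 2, and was 9 without FGF2 replicate 2.

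SB202190 added to FGF2 gave 6 members higher and 0 lower: Hmgcs1, Cyp51, Msmo1, Insig1, Acss2 and Scd2. Beside these, 1.32% of all genes were called higher and 1.7% lower. The member median was 0.20 against -0.0048 for all genes, 27 of 33 members had a positive change, and 16 passed an unadjusted p of 0.05. The median absolute change was 0.22 for members and 0.15 for all genes. No member was called without FGF2 replicate 1, FGF2 replicate 2 or SB202190 replicate 2. The member medians were then 0.19, 0.17 and 0.20, and those of all genes -0.0074, -0.0115 and 0.0016. Here and in the other comparisons, leaving out 1 array of the groups compared also lowered the number of all genes called. Counts at an unadjusted p, here and below, have no share of all genes beside them and describe only the genes counted.

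Against vehicle, FGF2 with U0126 gave 12 members higher and 3 lower, beside 16.7% and 15% of all genes, and FGF2 with SB202190 gave 13 higher and 5 lower, beside 18% and 17.8%. With median centring these splits were 19 to 1 and 18 to 0, beside 4030 to 1014 and 4059 to 1437 of 13178 genes. The U0126 group had Fdps, Cyp51, Msmo1, Nsdhl, Sc5d, Dhcr7, Insig1, Npc1, Acly, Acss2, Acaca and Elovl6 above vehicle and Hmgcs1, Ebp and Insig2 below. The SB202190 group had Idi1, Fdps, Cyp51, Msmo1, Nsdhl, Hsd17b7, Sc5d, Dhcr7, Lbr, Insig1, Acly, Fasn and Elovl6 above and Hmgcs1, Ebp, Srebf1, Insig2 and Scd2 below. Directly compared, Srebf1, Npc1 and Acaca were higher and Idi1, Hsd17b7, Lbr, Acly and Fasn lower with U0126 than with SB202190. These were 3 higher and 5 lower, beside 12.4% and 10.3% of all genes. That last count was 4 without U0126 replicate 2 or SB202190 replicate 1 and 3 without SB202190 replicate 2.

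**Figure D1:**
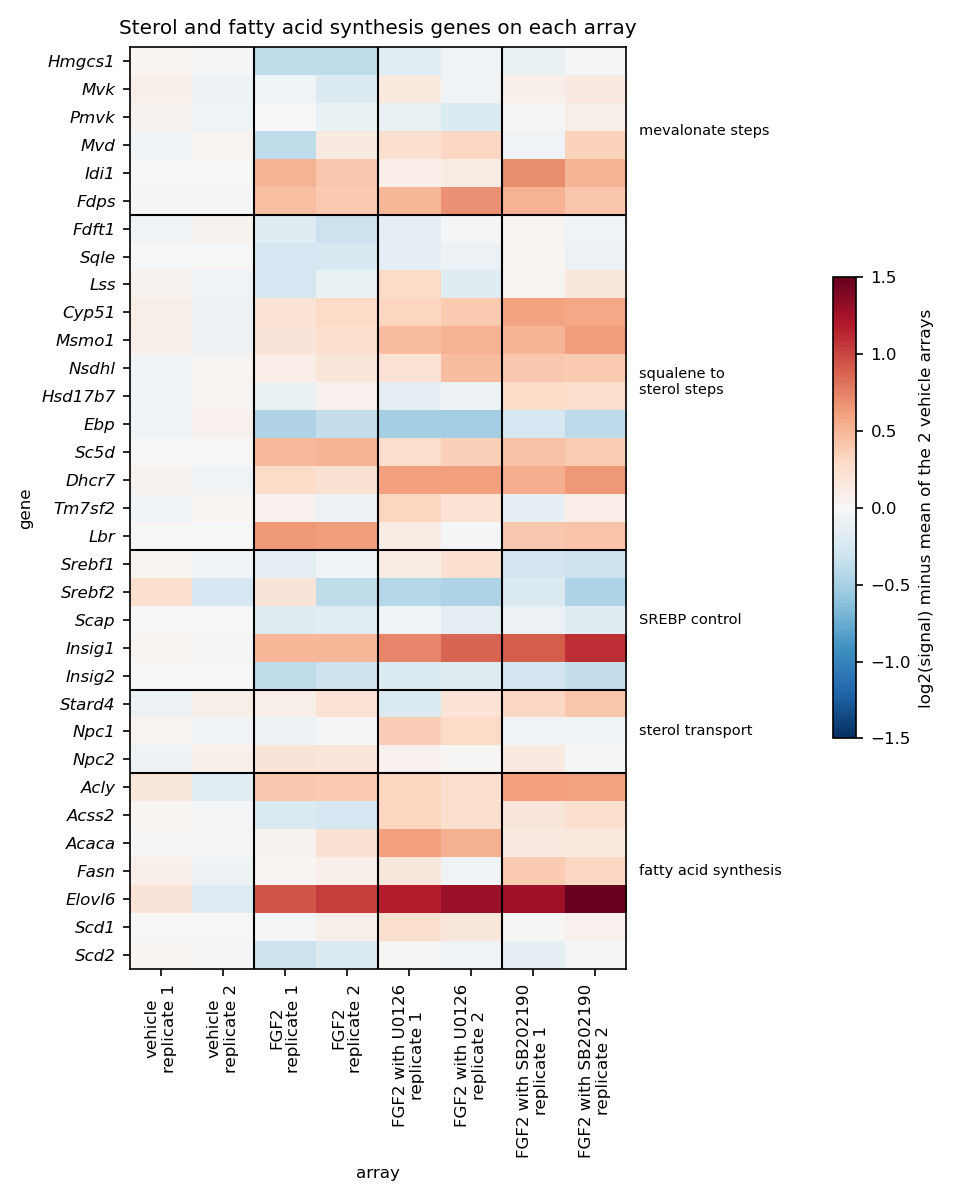
Deposited signal of the 33 genes on each of the 8 arrays, as log2(signal) minus the mean of the 2 vehicle arrays, with genes grouped by role (rows) and arrays by treatment (columns). Elovl6 and Insig1 are above vehicle on all 6 arrays with FGF2, and Hmgcs1 is lowest on the 2 FGF2 arrays.

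**Figure D2:**
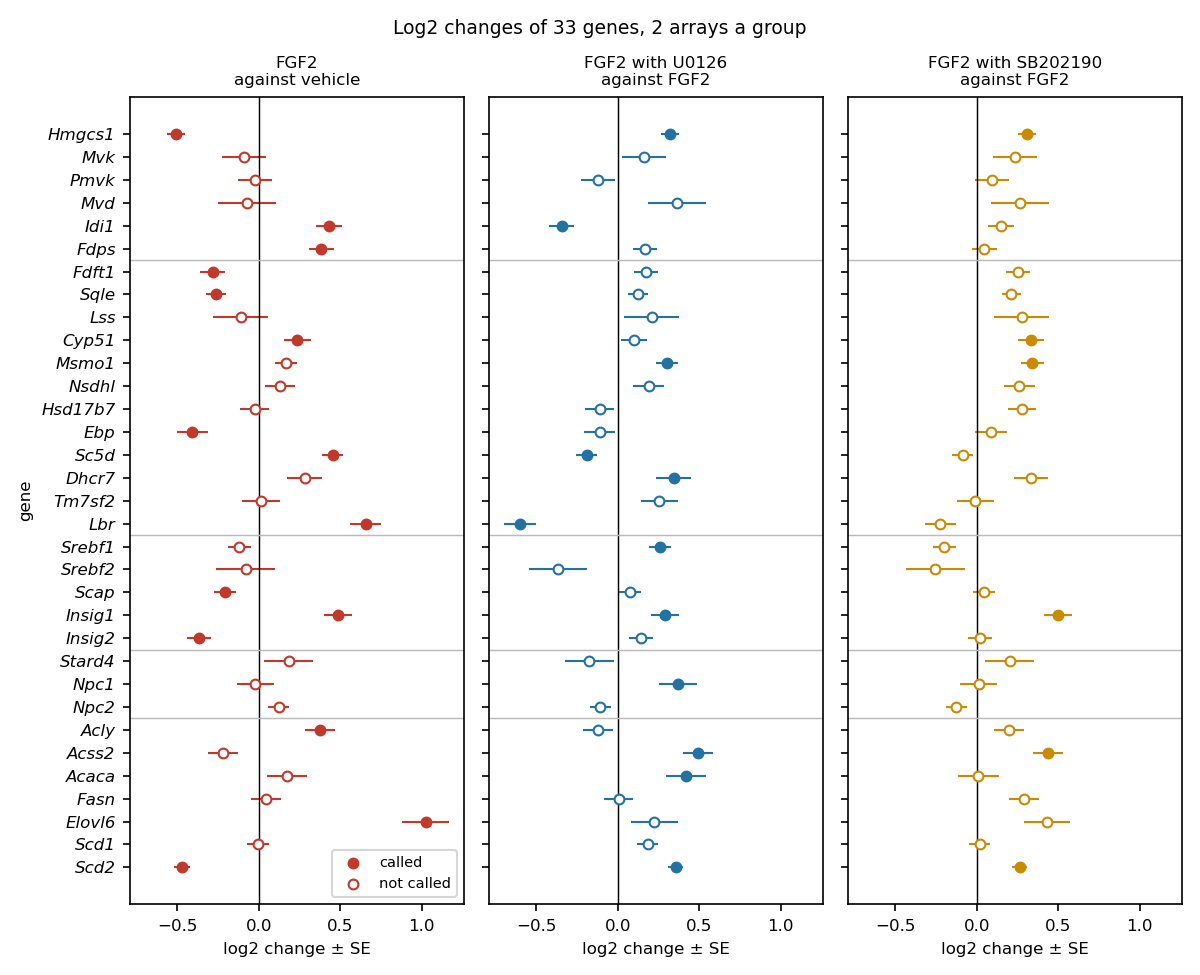
Log2 change ± SE of each gene in FGF2 against vehicle, U0126 added against FGF2 and SB202190 added against FGF2, with filled points for called genes. The first panel has 8 called genes to the right of 0 and 7 to the left, the second 9 and 3, and the third 6 and 0.

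Among the early enzymes, Hmgcs1, which condenses acetyl-CoA units into HMG-CoA, fell with FGF2, while Fdps rose. Signals of Hmgcs1 were 3444 and 3333 on the vehicle arrays, 2612 and 2602 with FGF2, 3017 and 3256 with U0126 added, and 3134 and 3312 with SB202190 added. Both FGF2 arrays lay below every other array, and the vehicle arrays lay highest. The change was -0.51 ± 0.056 (adjusted p = 1.05e-05) with FGF2 against vehicle, 0.32 ± 0.056 (adjusted p = 0.00115) with U0126 and 0.31 ± 0.056 (adjusted p = 0.0103) with SB202190 against FGF2. On the brightest probe set, levels with either inhibitor stayed below vehicle, by -0.19 ± 0.056 and -0.20 ± 0.056. These calls were lost without vehicle replicate 1 or replicate 1 of the inhibitor group and ended without the normalisation across arrays. Both changes turned sign with median centring. The U0126 call also ended without probe sets that can match several transcripts. Median centring also brought the FGF2 change to -0.18, not called. The 3 other bright probe sets of Hmgcs1 gave -0.53, -0.39 and -0.39 with FGF2, each called. Against vehicle they were split. 1 of them averaged 2534 with vehicle, 2610 with U0126 added and 2984 with SB202190 added. The others averaged 3164 and 1078 with vehicle, 2988 and 973 with U0126 added, and 2714 and 1043 with SB202190 added.

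Idi1, the isomerase that makes the building blocks interconvert, gave 2 opposite readings. Its brighter probe set read 502 and 504 on the vehicle arrays, 717 and 664 with FGF2, 539 and 542 with U0126 added, and 816 and 715 with SB202190 added. That probe set was high with FGF2 and with SB202190 and lower with vehicle and U0126, without overlap between FGF2 and vehicle. The changes were 0.43 ± 0.08 (adjusted p = 0.000793) with FGF2, -0.35 ± 0.08 (adjusted p = 0.00715) with U0126 against FGF2 and -0.49 ± 0.08 (adjusted p = 0.000654) between U0126 and SB202190. The U0126 change was -0.30 and not called without FGF2 replicate 1. The dimmer probe set read 204 and 203 on the vehicle arrays, 159 and 125 with FGF2, 196 and 255 with U0126 added, and 233 and 305 with SB202190 added, so its FGF2 arrays were the lowest of all. It fell with FGF2 (-0.49 ± 0.16, adjusted p = 0.0381) and rose with U0126 (0.63 ± 0.16, adjusted p = 0.0203) and with SB202190 (0.90 ± 0.16, adjusted p = 0.017). The direction of Idi1 was not settled by these arrays.

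Fdps, which joins these units into farnesyl diphosphate, read 609.6 and 591 on the vehicle arrays, 821 and 786 with FGF2, 848 and 965 with U0126 added, and 863 and 798 with SB202190 added. Every array with FGF2 lay above both vehicle arrays. Its change was 0.38 ± 0.076 (adjusted p = 0.00133) with FGF2, 0.55 ± 0.076 (adjusted p = 0.000109) with FGF2 and U0126 and 0.43 ± 0.076 (adjusted p = 0.000598) with FGF2 and SB202190 against vehicle, and neither inhibitor was called against FGF2. With the mean of its probe sets the FGF2 change of Fdps was 0.0044 and not called. The only other probe set in that mean lay below the filter, with averages of 6.10 with vehicle and 2.55 with FGF2. The mevalonate kinase Mvk, the phosphomevalonate kinase Pmvk and the decarboxylase Mvd were not called in any comparison on their brightest probe sets. Their changes ran from -0.09 to -0.024 with FGF2. Another probe set of Mvd read 90.4 and 64.8 on the vehicle arrays, 104 and 123 with FGF2, 106 and 161 with U0126 added, and 142 and 120.2 with SB202190 added and was higher with FGF2 (0.62 ± 0.21, adjusted p = 0.0438).

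Squalene synthase (Fdft1) and squalene epoxidase (Sqle), the first committed sterol enzymes, were lower with FGF2. Fdft1 read 924 and 994 on the vehicle arrays, 849 and 765 with FGF2, 872 and 943 with U0126 added, and 987 and 924 with SB202190 added, with no FGF2 array reaching a vehicle array. Its change was -0.28 ± 0.075 (adjusted p = 0.00849), and its other probe set gave -0.47 ± 0.10 (adjusted p = 0.00427). The Fdft1 call was lost without vehicle replicate 2 or FGF2 replicate 2 (-0.24 and -0.20). Sqle read 1354 and 1366 on the vehicle arrays, 1135 and 1155 with FGF2, 1232 and 1277 with U0126 added, and 1382 and 1279 with SB202190 added, with the FGF2 arrays lowest and a change of -0.26 ± 0.06 (adjusted p = 0.00373). Both had positive changes with the inhibitors that were not called, the nearest being Sqle with SB202190 against FGF2 at 0.21 ± 0.06 (adjusted p = 0.0797). With median centring the FGF2 changes of both were -0.052 and -0.049 and not called. Lanosterol synthase (Lss) was not called on its brightest probe set, and its other one was higher with FGF2 and SB202190 than with vehicle (0.57 ± 0.18, adjusted p = 0.0336).

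Past lanosterol, the enzymes that strip its methyl groups were higher with SB202190. Cyp51, the lanosterol demethylase, read 464 and 411 on the vehicle arrays, 505 and 536 with FGF2, 548 and 571 with U0126 added, and 662 and 656 with SB202190 added. The vehicle arrays were lowest and the SB202190 arrays highest, with no overlap between any 2 groups. Its changes were 0.24 ± 0.081 (adjusted p = 0.0333) with FGF2, 0.33 ± 0.081 (adjusted p = 0.0447) with SB202190 against FGF2 and 0.57 ± 0.081 (adjusted p = 9.72e-05) with FGF2 and SB202190 against vehicle. The FGF2 call was lost without vehicle replicate 2 (0.15), FGF2 replicate 1 (0.28) or FGF2 replicate 2 (0.19). The SB202190 call against FGF2 was lost without any 1 array of the FGF2, SB202190 or U0126 groups. Msmo1 is the methylsterol oxidase of a later step. It read 1721 and 1542 with vehicle, 1866 and 1932 with FGF2, 2251 and 2337 with U0126 added, and 2326 and 2507 with SB202190 added. The 4 inhibitor arrays all lay above the FGF2 arrays, which lay above vehicle. The FGF2 change itself was not called at 0.17 ± 0.068 (adjusted p = 0.0671), while U0126 added 0.30 ± 0.068 (adjusted p = 0.00633) and SB202190 0.34 ± 0.068 (adjusted p = 0.0169). The U0126 value was 0.28 and not called without FGF2 replicate 1. The 2 inhibitors did not differ detectably in Msmo1, with a difference of -0.039 ± 0.068.

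Nsdhl, the dehydrogenase that works beside Msmo1, read 349 and 369 on the vehicle arrays, 384 and 408 with FGF2, 417 and 496 with U0126 added, and 476 and 472 with SB202190 added. Its rise was called only against vehicle, at 0.32 ± 0.094 (adjusted p = 0.0192) with FGF2 and U0126 and 0.39 ± 0.094 (adjusted p = 0.00527) with FGF2 and SB202190. The first was lost without vehicle replicate 1 (0.28) or U0126 replicate 2 (0.20). Hsd17b7, the ketosteroid reductase that follows, read 368 and 391 on the vehicle arrays, 355 and 398 with FGF2, 343 and 361 with U0126 added, and 461 and 455 with SB202190 added. The SB202190 arrays were the highest, above vehicle by 0.25 ± 0.089 (adjusted p = 0.0406) and above U0126, whose difference from them was -0.39 ± 0.089 (adjusted p = 0.00677). The call against vehicle was lost without any 1 vehicle or SB202190 array. Another Hsd17b7 probe set was higher with FGF2 alone (0.55 ± 0.15, adjusted p = 0.0134), where the first gave -0.025 ± 0.089.

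The last steps to cholesterol moved in several directions. Ebp, the sterol isomerase, read 360.5 and 391 on the vehicle arrays, 275 and 293 with FGF2, 267 and 263 with U0126 added, and 316 and 286 with SB202190 added and was lower on all 6 arrays with FGF2 than on vehicle. Its change was -0.41 ± 0.10 (adjusted p = 0.00449) with FGF2, -0.52 ± 0.10 (adjusted p = 0.0011) with U0126 and -0.32 ± 0.10 (adjusted p = 0.0191) with SB202190, all against vehicle. The SB202190 call was lost without vehicle replicate 2 or SB202190 replicate 2, and of the 3 values only that with U0126 was called with median centring (-0.29). Sc5d, the desaturase that acts next, read 728 and 726 on the vehicle arrays, 1014 and 1035 with FGF2, 869.5 and 935 with U0126 added, and 986 and 943 with SB202190 added. It rose with FGF2 (0.45 ± 0.064, adjusted p = 9.2e-05) and was lower with U0126 than with FGF2 (-0.19 ± 0.064, adjusted p = 0.0487). That U0126 call was lost when any 1 of the 8 arrays was left out, but a second probe set gave -0.43 ± 0.12 (adjusted p = 0.0248). The dimmest probe set of Sc5d fell against vehicle with FGF2 and U0126 (-0.75 ± 0.21, adjusted p = 0.0214) where the brightest rose (0.26 ± 0.064, not called without U0126 replicate 2).

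Dhcr7, which reduces dehydrocholesterol to cholesterol, read 158 and 148 on the vehicle arrays, 184 and 179 with FGF2, 234 and 234 with U0126 added, and 223 and 239 with SB202190 added. The 4 inhibitor arrays were the highest and vehicle the lowest. FGF2 alone missed the threshold at 0.28 ± 0.11 (adjusted p = 0.0511), U0126 added 0.34 ± 0.11 (adjusted p = 0.0336), and the totals against vehicle were 0.62 ± 0.11 (adjusted p = 0.00054) with U0126 and 0.61 ± 0.11 (adjusted p = 0.000477) with SB202190. The call against FGF2 was lost without any 1 of the FGF2 or U0126 arrays. Tm7sf2 and Lbr both reduce the sterol ring after Cyp51, and Lbr also tethers chromatin and lamins at the inner nuclear membrane. Tm7sf2 was not called in any comparison, with 0.014 ± 0.12 for FGF2. Lbr read 208 and 208 on the vehicle arrays, 328 and 323 with FGF2, 225 and 205 with U0126 added, and 275 and 280.5 with SB202190 added. It was high with FGF2, intermediate with SB202190 and lowest with vehicle and U0126, whose arrays overlapped. FGF2 raised it by 0.66 ± 0.10 (adjusted p = 0.000129), the change from FGF2 was -0.60 ± 0.10 (adjusted p = 0.000688) with U0126, and it was -0.22 ± 0.10 (adjusted p = 0.253) with SB202190. The difference between U0126 and SB202190 was -0.38 ± 0.10 (adjusted p = 0.0129), a call lost without replicate 2 of either group.

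**Figure D3:**
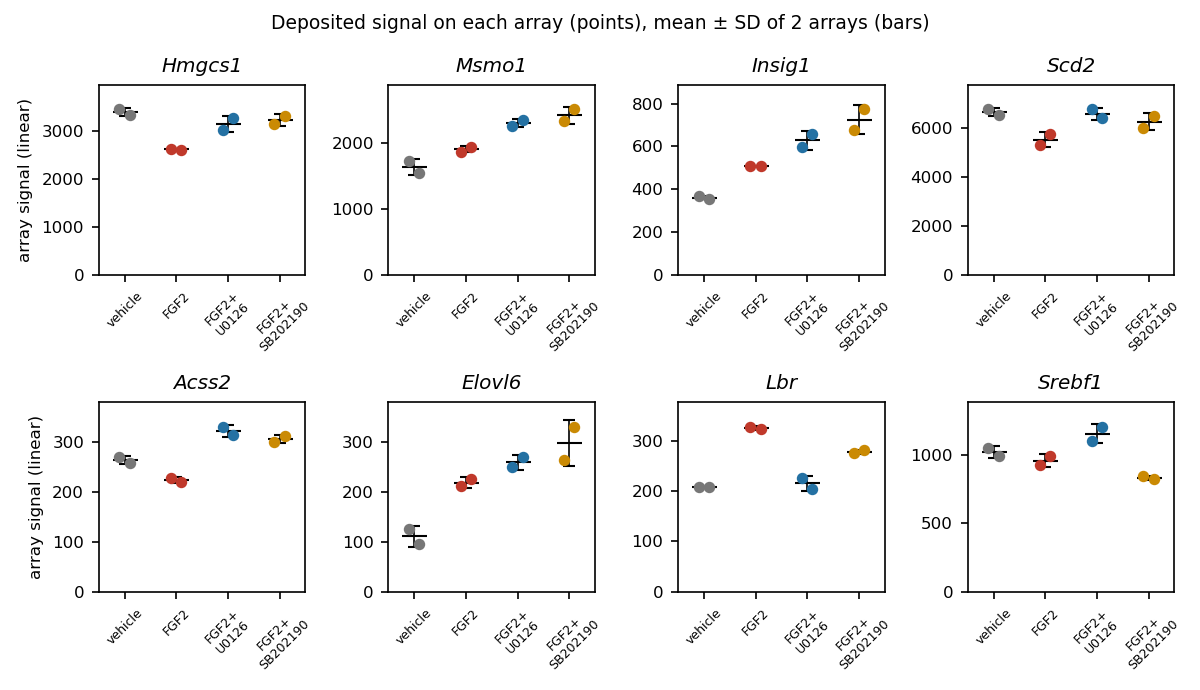
Deposited signal (linear axis from 0) of 8 genes on each array, as points, with bars for the mean ± SD of 2 arrays per group. Insig1 rises from vehicle at 366 and 354 to SB202190 at 678 and 774, Lbr is high with FGF2 at 328 and 323 and reads 225 and 205 with U0126, and Hmgcs1, Scd2 and Acss2 are lowest with FGF2.

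Of the SREBP regulators, Insig1, which retains Scap in the endoplasmic reticulum and is itself a classical SREBP target, changed in 5 of 6 comparisons. Insig1 read 366 and 354 on the vehicle arrays, 509 and 509 with FGF2, 596 and 659 with U0126 added, and 678 and 774 with SB202190 added. No 2 groups overlapped, and the order was vehicle, FGF2, U0126 and SB202190 from low to high. Group means were 360.2 ± 8.82, 509 ± 0.199, 628 ± 44.6 and 726 ± 67.9 (SD, n = 2). The change was 0.49 ± 0.085 (adjusted p = 0.000519) with FGF2, 0.29 ± 0.085 (adjusted p = 0.0268) with U0126 against FGF2 and 0.50 ± 0.085 (adjusted p = 0.0078) with SB202190 against FGF2. Against vehicle it reached 0.77 ± 0.085 (adjusted p = 1.55e-05) and 0.98 ± 0.085 (adjusted p = 1.14e-06). The 2 inhibitor groups were not told apart, with -0.21 ± 0.085 (adjusted p = 0.0977). The 3 calls against vehicle held under every alternative. The U0126 call was lost without either FGF2 array or U0126 replicate 2 (0.22), and the SB202190 call without either FGF2 array or SB202190 replicate 2 (0.40).

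On its brightest probe set, Insig2, the close relative of Insig1, was lower than vehicle in the 3 groups given FGF2. There it was not called between FGF2 and either inhibitor group. Signals of Insig2 were 592 and 600.2 on the vehicle arrays, 458 and 478 with FGF2, 517 and 524 with U0126 added, and 492 and 463 with SB202190 added, with both vehicle arrays highest. Its change was -0.37 ± 0.075 (adjusted p = 0.00156) with FGF2, and a second probe set gave -0.43 ± 0.10 (adjusted p = 0.00658). Another gave -0.11 ± 0.11, and median centring reduced the main value to -0.15. Against vehicle it was -0.23 ± 0.075 (adjusted p = 0.0328) with U0126 and -0.35 ± 0.075 (adjusted p = 0.00238) with SB202190, the first of which was lost without any 1 vehicle or U0126 array. With median centring they were 0.013 and -0.11, neither called. The dimmer probe sets read otherwise with SB202190. That with -0.43 averaged 354 with vehicle, 261 with FGF2, 280 with U0126 added and 351 with SB202190 added. That with -0.11 averaged 328, 303, 270 and 352 in the same order.

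Srebf1, which encodes the SREBP that mainly drives fatty acid genes, set the 2 inhibitors apart. It read 1054 and 992 on the vehicle arrays, 925 and 994 with FGF2, 1106 and 1208 with U0126 added, and 844 and 824 with SB202190 added. Both U0126 arrays lay above all others and both SB202190 arrays below. U0126 raised it from FGF2 by 0.26 ± 0.069 (adjusted p = 0.0161), SB202190 gave -0.20 ± 0.069 (adjusted p = 0.145), and the difference between the inhibitors was 0.46 ± 0.069 (adjusted p = 0.00037). That difference was called under every alternative at the same threshold, and the U0126 call against FGF2 was lost without FGF2 replicate 1 or U0126 replicate 2 (0.21 each). Against vehicle, SB202190 lowered Srebf1 (-0.32 ± 0.069, adjusted p = 0.00254), a call lost with median centring (-0.086). Srebf2, which encodes the SREBP of the cholesterol genes, read 346 and 243 on the vehicle arrays, 331 and 223 with FGF2, 215 and 210.2 with U0126 added, and 249.5 and 210.2 with SB202190 added and was not called. On this probe set its vehicle arrays and its FGF2 arrays differed more between replicates than between groups. Means were 294 with vehicle, 277 with FGF2, 212 with U0126 added and 230 with SB202190 added. The other Srebf2 probe set averaged 167, 168, 186 and 194 in that order, higher rather than lower with the inhibitors. Scap read 1001 and 987 on the vehicle arrays, 876 and 880.4 with FGF2, 953 and 901 with U0126 added, and 932 and 876 with SB202190 added and fell with FGF2 (-0.21 ± 0.067, adjusted p = 0.0244), a call lost without any 1 vehicle or FGF2 array and turned to 0.020 with median centring.

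Of the 3 sterol carriers, 1 was called, and only where U0126 was added. Npc1, the lysosomal membrane protein that exports cholesterol, read 155 and 147 on the vehicle arrays, 143 and 148 with FGF2, 196 and 185 with U0126 added, and 147 and 146 with SB202190 added. Only the U0126 arrays were high, above FGF2 by 0.37 ± 0.12 (adjusted p = 0.0349), above vehicle by 0.35 ± 0.12 (adjusted p = 0.0339) and above SB202190 by 0.36 ± 0.12 (adjusted p = 0.0391). Each of these 3 calls was lost without any 1 array of its 2 groups, though both U0126 arrays lay above all 6 others. Npc2, the soluble partner that hands cholesterol to Npc1, and Stard4, a cytosolic sterol carrier, were not called, and their FGF2 changes were 0.12 ± 0.064 and 0.18 ± 0.15.

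For fatty acids, the suppliers of acetyl-CoA behaved unlike each other. Acly, which splits citrate to acetyl-CoA, read 1042 and 825 on the vehicle arrays, 1232 and 1219.9 with FGF2, 1161 and 1109 with U0126 added, and 1419.7 and 1404 with SB202190 added. Both vehicle arrays were below all others and the SB202190 arrays were highest. FGF2 raised it by 0.38 ± 0.091 (adjusted p = 0.00502), the next brightest probe set gave 0.26 ± 0.074 (adjusted p = 0.0189), and SB202190 exceeded U0126, which differed from it by -0.32 ± 0.091 (adjusted p = 0.0222). That call was lost without U0126 replicate 2 or either SB202190 array. Without vehicle replicate 2 the FGF2 change of Acly was 0.20 and not called. Its call with FGF2 and U0126 against vehicle (0.25 ± 0.091, adjusted p = 0.0491) was lost without any 1 array other than vehicle replicate 1, and the change was 0.43 without vehicle replicate 1 and 0.077 without vehicle replicate 2. Acss2, which makes acetyl-CoA from acetate, read 269 and 258 on the vehicle arrays, 228 and 219.6 with FGF2, 330.5 and 313 with U0126 added, and 300.3 and 311 with SB202190 added. On this probe set, its brightest, the FGF2 arrays were lowest and all 4 inhibitor arrays highest. The FGF2 change was -0.22 ± 0.092 (adjusted p = 0.079) on this probe set and -0.54 ± 0.10 (adjusted p = 0.00173) on its other one above the filter. That other one read 230 and 218 on the vehicle arrays, 149 and 152 with FGF2, 230 and 236 with U0126 added, and 195 and 208 with SB202190 added. There the SB202190 arrays lay below vehicle. On the brightest probe set, U0126 raised Acss2 from FGF2 by 0.49 ± 0.092 (adjusted p = 0.00199) and SB202190 by 0.44 ± 0.092 (adjusted p = 0.0221). The SB202190 value was not called without any 1 FGF2 or SB202190 array. The Acss2 call with FGF2 and U0126 against vehicle (0.27 ± 0.092, adjusted p = 0.038) was lost without any 1 vehicle, FGF2 or U0126 array.

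Acaca, the carboxylase that commits acetyl-CoA to fatty acids, was high only with U0126 on its brightest probe set. Its signals were 128 and 125 on the vehicle arrays, 131 and 149 with FGF2, 194 and 183 with U0126 added, and 139 and 141 with SB202190 added. U0126 raised it by 0.42 ± 0.12 (adjusted p = 0.0281) from FGF2 and by 0.59 ± 0.12 (adjusted p = 0.00254) from vehicle, and the difference from SB202190 was 0.41 ± 0.12 (adjusted p = 0.0308). The first of these was lost without FGF2 replicate 1 or either U0126 array, and the last without any 1 array of its 2 groups. Fasn, the fatty acid synthase, read 502 and 454 on the vehicle arrays, 487 and 506 with FGF2, 537 and 461 with U0126 added, and 629 and 592 with SB202190 added. Its SB202190 arrays lay above the other 6, but the change from FGF2 was not called at 0.29 ± 0.091 (adjusted p = 0.11). It exceeded vehicle by 0.33 ± 0.091 (adjusted p = 0.0113), and U0126 differed from SB202190 by -0.29 ± 0.091 (adjusted p = 0.038). That difference was -0.17 and not called without U0126 replicate 2, and the call against vehicle was lost without vehicle replicate 2 or SB202190 replicate 1. FGF2 alone gave 0.043 ± 0.091.

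Elovl6, the elongase that extends palmitate to stearate, had the largest change of the set. It read 125.8 and 96.7 on the vehicle arrays, 212 and 227 with FGF2, 249.8 and 270.3 with U0126 added, and 266 and 332 with SB202190 added. Every array with FGF2 was above both vehicle arrays, and mean signals were 111 ± 20.6 with vehicle, 219 ± 10.6 with FGF2, 260.0 ± 14.5 with U0126 and 299 ± 46.9 with SB202190. Changes against vehicle were 1.02 ± 0.14 (adjusted p = 7.92e-05), 1.25 ± 0.14 (adjusted p = 2.16e-05) and 1.46 ± 0.14 (adjusted p = 3.5e-06). Added inhibitor was not told apart from FGF2 alone, at 0.22 ± 0.14 (adjusted p = 0.298) for U0126 and 0.43 ± 0.14 (adjusted p = 0.126) for SB202190. A second Elovl6 probe set gave 0.39 ± 0.19 (adjusted p = 0.144) with FGF2. The mean of all its probe sets gave 0.51, which was not called. That mean takes in a further probe set below the filter, which averaged 1.98 with vehicle and 1.92 with FGF2.

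The desaturases put the double bond into stearoyl-CoA, and Scd2 is the form abundant in brain. Scd2 read 6779.7 and 6554 on the vehicle arrays, 5314 and 5762 with FGF2, 6772 and 6427 with U0126 added, and 6029.8 and 6522 with SB202190 added, with the FGF2 arrays lowest. Its change was -0.47 ± 0.048 (adjusted p = 6.13e-06) with FGF2, 0.35 ± 0.048 (adjusted p = 0.000199) with U0126 and 0.26 ± 0.048 (adjusted p = 0.0114) with SB202190 against FGF2. Without normalisation across arrays the FGF2 change was -0.27, still called, and the SB202190 change 0.18, not called. With median centring the FGF2 change was -0.070 and not called. The 2 other probe sets gave -0.50 ± 0.054 (adjusted p = 1.75e-05) and -0.58 ± 0.079 (adjusted p = 0.000133) with FGF2 and 0.45 ± 0.054 (adjusted p = 0.000144) and 0.48 ± 0.079 (adjusted p = 0.00151) with U0126. On those 2, SB202190 was not called against FGF2 (0.18 ± 0.054 and 0.077 ± 0.079), and U0126 exceeded SB202190 by 0.26 ± 0.054 (adjusted p = 0.00499) and 0.40 ± 0.079 (adjusted p = 0.00431). Scd1 read 1086 and 1103 on the vehicle arrays, 1074 and 1154 with FGF2, 1288 and 1234 with U0126 added, and 1110.5 and 1143 with SB202190 added and was not called in any comparison, the nearest being U0126 against vehicle at 0.18 ± 0.065 (adjusted p = 0.0542).

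**Figure D4:**
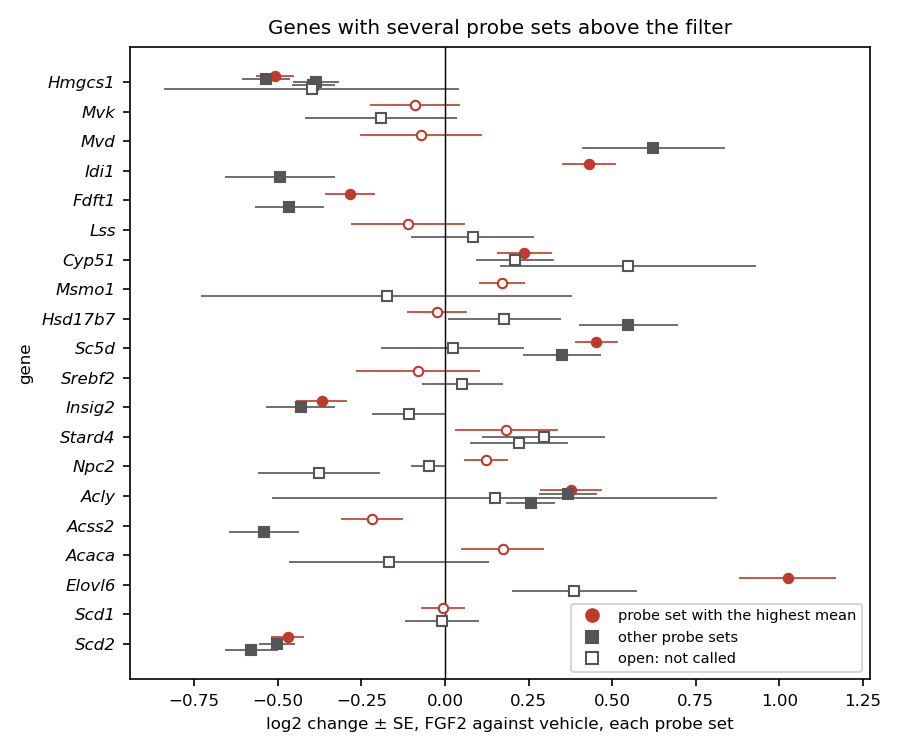
Log2 change ± SE with FGF2 against vehicle for every probe set above the filter of the 20 genes that had several, with the brightest in red and filled markers for called ones. The 2 Idi1 probe sets lie on opposite sides of 0, and the called probe sets of Hmgcs1, Fdft1, Insig2, Acly and Scd2 lie on 1 side for each gene.

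Besides the brightest, 32 probe sets of the members lay above the filter. With FGF2, 14 of them were called among 27061 probe sets, of which 30.5% were called. Of these 14, 10 had the direction of a called brightest probe set, 1 (Idi1) the opposite, and 3 (Mvd, Hsd17b7 and Acss2) belonged to genes whose brightest was not called. With U0126 against FGF2, 9 were called, 8 in the same direction and 1, again Idi1, opposite, beside 16.3% of all probe sets. With SB202190 against FGF2, 4 were called, all higher, beside 1.91%.

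By role, FGF2 raised 2 and lowered 1 of 6 tested mevalonate enzymes, raised 3 and lowered 3 of 12 squalene-to-sterol enzymes, raised 1 and lowered 2 of 5 SREBP regulators, and raised 2 and lowered 1 of 7 fatty acid enzymes. The shares of all genes were 18.9% higher and 19% lower, and with so few members a role these counts set none apart. U0126 against FGF2 raised 1 and lowered 1 mevalonate enzyme, raised 2 and lowered 2 sterol enzymes, and raised 2 regulators, 1 carrier and 3 fatty acid enzymes, beside 11.6% higher and 10.5% lower of all genes. These tallies take Idi1 by its brightest probe set, the raised or lowered mevalonate enzyme whose direction was not settled. SB202190 against FGF2 raised 1 mevalonate enzyme, 2 sterol enzymes, 1 regulator and 2 fatty acid enzymes, beside 1.32% of all genes higher. Both sets of inhibitor values share the FGF2 arrays, so they are not independent of each other or of the FGF2 response.

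Neighbouring pathways were counted from lists of other genes. Their counts stand beside 18.9% of all genes called higher and 19% lower with FGF2, 11.6% and 10.5% with U0126 against FGF2, and 1.32% and 1.7% with SB202190 against FGF2. Counts with median centring stand beside 4018 genes higher and 1479 lower of 13178 with FGF2 on that scaling. Of 19 tested genes listed for fatty acid oxidation, 14 fell with FGF2 and 0 rose, with a median of -0.42. Examples were the thiolase Acaa2 (-0.92 ± 0.087, adjusted p = 2.79e-06), the trifunctional protein subunit Hadhb (-0.57 ± 0.063, adjusted p = 1.01e-05) and the carnitine palmitoyltransferase family member Cpt1c (-0.56 ± 0.062, adjusted p = 1.22e-05). With median centring 6 fell and 0 rose. U0126 against FGF2 raised 4 and lowered 0, led by Cpt1c at 0.46 ± 0.062 (adjusted p = 0.000194), and SB202190 raised Hadhb (0.32 ± 0.063, adjusted p = 0.0153) and lowered Etfb, an electron carrier (-0.29 ± 0.071, adjusted p = 0.0457). Summed astrocyte marker signal fell over the same FGF2 contrast, as given above.

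Of 34 other genes of fatty acid elongation, desaturation and activation, FGF2 raised 8 and lowered 15, or 10 and 10 with median centring. The smallest p-values belonged to the glycerol phosphate acyltransferase Gpam (-1.68 ± 0.089, adjusted p = 1.73e-08), the dehydratase of elongation Hacd2 (-0.87 ± 0.058, adjusted p = 1.34e-07) and Mid1ip1, an activator of acetyl-CoA carboxylase (-0.65 ± 0.054, adjusted p = 9.6e-07). U0126 against FGF2 raised 15 and lowered 2, among them Hacd2 (0.71 ± 0.058, adjusted p = 2.9e-06), the desaturase family member Fads3 (0.97 ± 0.11, adjusted p = 6.5e-05) and the acyl-CoA synthetase Acsl6 (0.58 ± 0.079, adjusted p = 0.000192). SB202190 raised the desaturase Fads1 (0.33 ± 0.062, adjusted p = 0.0124) and lowered Fads3 (-0.55 ± 0.11, adjusted p = 0.0221) and the fatty acid binding protein Fabp5 (-0.33 ± 0.074, adjusted p = 0.0316). Fads3 thus differed between U0126 and SB202190 by 1.51 ± 0.11 (adjusted p = 1.4e-06).

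Of 22 other genes of SREBP processing and sterol handling, FGF2 raised 2 and lowered 7, or 7 and 3 with median centring, and U0126 against FGF2 raised 7 and lowered 1. Examples were the sterol carrier Stard5 (-0.93 ± 0.14, adjusted p = 0.00012), the phosphatidate phosphatase Lpin1 (-0.70 ± 0.11, adjusted p = 0.000158) and Erlin2, a membrane protein of sterol-regulated degradation (-0.40 ± 0.068, adjusted p = 0.000454), with FGF2. With U0126 they were the sterol transporter Gramd1c (0.99 ± 0.23, adjusted p = 0.00803), Stard5 (0.54 ± 0.14, adjusted p = 0.0115) and the geranylgeranyl diphosphate synthase Ggps1 (0.52 ± 0.13, adjusted p = 0.0141). With SB202190 against FGF2, 0 of 22 were called in limma and 3 had an unadjusted p under 0.05, where 3.02% of all genes were called. Of 12 tested genes of sterol export and the LXR response, FGF2 lowered Cyp46a1, the brain cholesterol hydroxylase (-0.70 ± 0.10, adjusted p = 0.000102), and raised the oxysterol hydroxylase Cyp7b1 (0.40 ± 0.092, adjusted p = 0.0036). U0126 raised Cyp46a1 from FGF2 by 0.52 ± 0.10 (adjusted p = 0.00233), and with SB202190 0 of 12 were called in limma and 2 had an unadjusted p under 0.05.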

How the data were processed

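Each of the 8 samples had 1 Affymetrix array. The deposited values were linear intensities per probe set that the authors had summarised from the scanned probes, with the summary method not given in the sources used here. Trimmed means after leaving out 2% at each end were equal on all arrays. From these, log2(intensity + 1.77) was taken, the pseudocount being the 10th percentile of all values, and arrays were quantile-normalised. The pseudocount understates the change of low genes. The platform annotation gave 34958 probe sets 1 symbol, 932 several and 9211 none; each gene's brightest probe set on average stood for it, and probe sets below the 40th percentile of means (log2 of 3.83) were left out. Fits used limma 3.58.1 in R 4.3.3 (lmFit, eBayes with an intensity trend, all 4 groups, 4 residual and 8.99 prior degrees of freedom), with Benjamini-Hochberg adjustment over 13174 genes, and over 27061 probe sets where single probe sets are given. The fit was tested on simulated data.

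The 2 arrays per group limit the precision, and saturation and detection calls were not used here. Same-numbered samples of different groups did not deviate together (correlations of deviations from group means between -0.026 and 0.034), so the replicate numbers pair nothing. Promoter letters were searched in Python 3.11.15. All members were to be named, and from each list of other genes up to 3 with the smallest p per comparison. The members, lists and rules were chosen with earlier results of these data known. Alternatives tried were other scalings, pseudocounts, filters, variance priors, probe set choices and thresholds, and leaving out each array.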

Additional observations from a re-analysis of the deposited data

How the results depend on the processing

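The counts of called members kept within 1.5 times under most alternatives, with these exceptions. At an adjusted p under 0.01, counts were 6 for U0126 against FGF2, 1 for SB202190 against FGF2, 9 for U0126 against vehicle and 3 between the inhibitors. In that order, 1620, 115, 2713 and 1689 of 13174 genes were called, beside 2916, 398, 4177 and 2986 at 0.05. With all probe sets of a gene averaged, those below the filter included, member counts were 9 for FGF2 against vehicle, 3 for SB202190 against FGF2 and 8 for U0126 against vehicle. Of 12470 genes, 3518, 170 and 2909 were called in that order. Without the intensity trend member counts were 6 for U0126 and 0 for SB202190 against FGF2 (14 at an unadjusted p under 0.05 in limma). Of 13174 genes, 1619 and 0 were then called. Median centring gave 3 members for SB202190 against FGF2, beside 235 of 13178 genes. Leaving out 1 array gave 11 to 15 for FGF2 against vehicle, 4 to 11 for U0126 against FGF2, 0 to 6 for SB202190 against FGF2, 10 to 15 for U0126 against vehicle, 15 to 19 for SB202190 against vehicle and 3 to 9 between the inhibitors. The replicate number as a block, which pairs nothing here, gave 15, 11, 5, 16, 19 and 7 in that order. An added scaling, chosen after seeing the data, centred arrays on the median of the genes tested and gave 16, 12, 5, 14, 18 and 9.

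Signs turned for these members. With median centring, FGF2 against vehicle gave Scap 0.020 and Scd1 0.22, U0126 against vehicle gave Hmgcs1 0.096 and Insig2 0.013, and SB202190 against vehicle gave Hmgcs1 0.13, Npc2 0.26 and Scd2 0.12. With probe sets averaged, FGF2 against vehicle gave Idi1 -0.032 and Acly -0.19, U0126 against FGF2 gave Idi1 0.14, SB202190 against FGF2 gave Acss2 -0.012, and U0126 against vehicle gave Sc5d -0.19 and Acly -0.29. For Acly and Acss2 these averages take in probe sets below the filter. Without probe sets that can match several transcripts, FGF2 against vehicle gave Mvd 0.62 and Hsd17b7 0.55. The cause was not tested. Leaving the 0.01 threshold aside, calls kept under every alternative were Sc5d, Lbr and Insig1 for FGF2 against vehicle (3 of 15), Lbr and Scd2 for U0126 against FGF2 (2 of 12), and 0 of 6 for SB202190 against FGF2. Against vehicle they were 4 of 15 for U0126 and 7 of 18 for SB202190, and between the inhibitors 2 of 8. Dim probe sets carried larger errors, and 11 of the 76 member probe sets lay below the filter.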
